A study of Mus musculus with 2 samples.

Results

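The epidermal growth factor (EGF) receptor family and its ligands were followed here through 10 genes, taken by a fixed list from the 28000 features of the count tables. They were 7 ligands (Areg, Ereg, Btc, Hbegf, Tgfa, Egf and Nrg1) and 3 receptors (Egfr, Erbb2 and Erbb3). They were chosen with earlier results of these data known, so comparisons of them with all genes are descriptions. The counts came from single-cell RNA-sequencing of mouse prostate lesions, with 1 library per genotype and therefore no replicates. The DoubleTg library, labelled Prostatic adenocarcinoma, came from hHGFtg:H11hMET/+:PBCre4 mice, and its tissue held high-grade intraepithelial neoplasia as well as carcinoma. The TripleTg library, labelled Prostatic carcinoma, came from carcinoma tissue of mice that carried the same alleles plus Ctnnb1L(Ex3)/+. Both groups therefore shared a human HGF transgene (hHGFtg) and a human MET transgene (hMETtg), and the latter was switched on by a Cre recombinase under a modified probasin promoter, which is active in prostate epithelium. In TripleTg mice the same Cre also removed exon 3 of Ctnnb1 and so stabilised β-catenin. The age of the mice and the number of animals per library are not given in the sources used here, and genotype and library cannot be told apart.

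EGF-family ligands are made as membrane-anchored precursors, and proteases of the ADAM group shed them to act on the same or on neighbouring cells. Amphiregulin (Areg), epiregulin (Ereg), betacellulin (Btc), HB-EGF (Hbegf), TGF-alpha (Tgfa) and EGF bind the EGF receptor, whereas neuregulin 1 (Nrg1) binds ERBB3 and ERBB4. ERBB2 has no known ligand of its own and signals as the partner of the other receptors, and ERBB3 has little kinase activity and depends on such a partner. In the prostate these receptors act beside the androgen receptor, and EGF itself is an abundant secretory product of the gland.

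Of the DoubleTg cells, 10598 of 12072 passed the limits on genes and mitochondrial counts, and all 9492 TripleTg cells did. Median depth was 16761 unique molecular identifiers (UMIs, 1 per captured transcript) per kept cell in DoubleTg and 20097 in TripleTg. The libraries shared 29 cell barcodes. Levels are given as CPM, the UMIs of a gene scaled to 1000000 UMIs of a cell class. Shares of cells were taken after every cell was thinned to 5000 UMIs. The 95% intervals describe counting error alone, since cells of 1 library are not replicates, and none of them measures the spread between animals. Cell classes were rebuilt from clusters of the same cells, so levels by class are descriptions.

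The luminal-like class held 4751 DoubleTg and 4722 TripleTg cells, and the basal-like class 1859 and 908. Keratin genes of luminal cells were at like levels in both luminal-like classes, Krt8 at 4772 CPM in DoubleTg and 5374 CPM in TripleTg. Secretory markers were not: Pbsn (probasin) was at 1687 CPM in DoubleTg and 7.13 CPM in TripleTg, Sbp at 60126 and 0.269 CPM, and Msmb at 5382 CPM and 0 UMIs. The 12 luminal markers summed to 82246 and 16275 CPM. The luminal-like cells of the libraries thus differed widely in secretory markers, and the part of this in the differences given below was not tested. In the basal-like class the 8 basal markers summed to 15585 CPM in DoubleTg and 5789 CPM in TripleTg.

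Areg, Ereg and Btc lie close together on chromosome 5, with Epgn, within 375.5 kb (order Epgn, Ereg, Areg, Btc, GRCm38). Areg occupies chr5:91139599-91148432 on the plus strand and Btc chr5:91357261-91402994 on the minus strand. The promoters of Areg, Btc and Egf are shown because Areg and Btc were higher in hMETtg-positive DoubleTg luminal-like cells and Egf differed most between the libraries. Each runs from 250 bases before the RefSeq start site through the first 50 bases of the transcript (GRCm38.p6), at chr5:91139349-91139648 on the plus strand for Areg, chr5:91402945-91403244 on the minus strand for Btc and chr3:129755273-129755572 on the minus strand for Egf. Capitals mark the cAMP response element (TGACGTCA), its core (TGACG, or CGTCA where it lies on the other strand) and the TATA motif (TATAAA).
Areg: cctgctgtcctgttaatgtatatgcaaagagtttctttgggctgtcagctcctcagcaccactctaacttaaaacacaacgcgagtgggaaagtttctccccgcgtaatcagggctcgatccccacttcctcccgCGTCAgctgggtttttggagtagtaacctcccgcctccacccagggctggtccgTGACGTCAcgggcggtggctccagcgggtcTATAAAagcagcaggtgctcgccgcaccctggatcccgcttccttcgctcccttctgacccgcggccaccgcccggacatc
Btc: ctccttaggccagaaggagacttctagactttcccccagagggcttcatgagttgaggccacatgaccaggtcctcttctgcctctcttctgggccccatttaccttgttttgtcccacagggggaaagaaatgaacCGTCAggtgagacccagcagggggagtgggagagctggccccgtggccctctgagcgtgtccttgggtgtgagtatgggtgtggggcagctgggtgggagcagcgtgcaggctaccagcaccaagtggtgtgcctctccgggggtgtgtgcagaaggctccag
Egf: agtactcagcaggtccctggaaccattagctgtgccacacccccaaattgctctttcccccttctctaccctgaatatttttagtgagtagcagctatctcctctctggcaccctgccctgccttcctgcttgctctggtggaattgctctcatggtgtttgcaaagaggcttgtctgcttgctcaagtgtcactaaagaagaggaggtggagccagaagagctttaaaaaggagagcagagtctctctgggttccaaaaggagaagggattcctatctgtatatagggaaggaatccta

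The Areg window held the full element at base -61 from the start site, a further core at -115 on the other strand and a TATA motif at -31. The full element contains a core on each strand. On either strand, TGACGTCA occurred in 1.79% of the 32851 promoters of that table, TGACG in 20.8% and TATAAA in 13.6%. The Btc window held 1 core, at -113 on the other strand. The Egf window held none of these letters. Another Egf promoter, at chr3:129725037-129725336 on the minus strand and not shown here, held none of them either. ATCAAAG (a TCF/LEF motif), TGANTCA (an AP-1 motif) and AGAACA (an arm of the androgen response element) were searched on both strands as well, and none of them lay in the 3 windows, against 3.73%, 7.81% and 19.0% of all promoters. A match is a description of the letters and not a site in use. The table held a promoter for 6 of the 10 genes, and Ereg, Hbegf, Nrg1 and Erbb3 were not among them.

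Amphiregulin, a low-affinity ligand of the EGF receptor, was found mainly in luminal-like cells. Areg reached 295 CPM (293 to 298) in DoubleTg luminal-like cells and 921 CPM (916 to 926) in TripleTg luminal-like cells. This class carried 86.8% of all Areg UMIs in DoubleTg and 81.3% in TripleTg. Smooth muscle-like cells came next in DoubleTg at 240 CPM (206 to 277), where 1 of the 65 cells held 121 of the 182 UMIs. At 5000 UMIs a UMI of Areg was found in 35.1% of DoubleTg and 85.8% of TripleTg luminal-like cells, and without thinning in 53.3% and 95.8%. Endothelial-like cells, which should lack the gene, had 1 in 6.88% and 28.8% of cells, at median depths of 6135 and 6980 UMIs before thinning against 35871 and 25747 in luminal-like cells. Scrublet, a doublet caller, marked 8.33% of the DoubleTg endothelial-like cells as doublets and 0.926% of the luminal-like cells, and these cells were left in.

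The Areg level of endothelial-like cells was 16.0% of the luminal-like level in DoubleTg and 11.2% in TripleTg. For the luminal keratin gene Krt8 the same share was 17.2% and 11.4%, so that Areg did not exceed the keratin in this respect. In TripleTg fibroblast-like cells Areg (247 CPM) and Krt8 were both at 26.8% of their luminal-like level, but most of this lay in 1 of 3 clusters. Cluster 3 (309 cells, median 3742 UMIs) was at 453 CPM of Areg, and clusters 4 and 16 were at 100.4 and 131 CPM. In DoubleTg the classes were less alike in this respect, since Areg was at 29.7% of the luminal-like level in fibroblast-like and 30.0% in macrophage-like cells, where Krt8 was at 5.74% and 4.0%. These last UMIs sat in few cells, 20 cells holding 79.1% of them among fibroblast-like and 90.9% among macrophage-like cells. Basal-like cells had 145 CPM of Areg in DoubleTg and 522 CPM in TripleTg.

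Epiregulin, a close relative of amphiregulin, was, by class, at its highest level outside the luminal-like cells. In DoubleTg, Ereg was at 68.1 CPM (65.0 to 71.4) in basal-like cells and 66.4 CPM (60.6 to 72.7) in fibroblast-like cells, which did not differ beyond counting error, and at 24.3 CPM in luminal-like cells. In TripleTg the order among these named classes was basal-like (141 CPM, 136 to 146) and smooth muscle-like (135 CPM, 115 to 158), again not separated, then fibroblast-like (106 CPM) and luminal-like cells (23.1 CPM). The intermediate epithelial clusters, named neither luminal nor basal, lay between the last 2 at 52.2 CPM. Macrophage-like cells held 0.619 CPM and 7.21 CPM. Luminal-like cells still held 63.5% of the Ereg UMIs of DoubleTg and 42.1% of those of TripleTg. Among their DoubleTg clusters, cluster 12 was at 74.4 CPM, above the basal-like class, and cluster 17 at 56.9 CPM. In DoubleTg fibroblast-like cells 20 cells carried 83.3% of the Ereg UMIs, against 20.5% in basal-like cells.

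Betacellulin was a luminal product in both libraries. Btc was at 96.9 CPM (95.5 to 98.3) in DoubleTg and 123 CPM (121 to 125) in TripleTg luminal-like cells, which held 93.4% and 84.6% of its UMIs. The DoubleTg basal-like level was 11.1 CPM and the TripleTg basal-like level 60.8 CPM. In the endothelial-like class Btc was at 21.8% and 11.6% of the luminal-like level, close to the shares given for Krt8.

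EGF, the founding ligand of the family and a secretory product, was found in DoubleTg luminal-like cells and almost nowhere in TripleTg. Egf was at 63.1 CPM (62.0 to 64.3, 12005 UMIs) in DoubleTg luminal-like cells and at 0.358 CPM (0.268 to 0.470, 52 UMIs) in TripleTg luminal-like cells. At 5000 UMIs 23.2% and 0.131% of these cells had a UMI of it. DoubleTg luminal-like cells held 92.6% of the Egf UMIs of their library. DoubleTg basal-like cells had 3.07 CPM, below the 9.90 CPM of endothelial-like cells.

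TGF-alpha, an epithelial ligand with high affinity for the EGF receptor, changed its order of classes between the libraries. In DoubleTg, Tgfa was at 50.4 CPM (47.7 to 53.3) in basal-like, 38.2 CPM (30.5 to 47.3) in endothelial-like and 28.8 CPM (28.1 to 29.6) in luminal-like cells. In TripleTg it was at 163 CPM (161 to 165) in luminal-like, 146 CPM (141 to 151) in basal-like and 52.2 CPM (43.6 to 61.9) in endothelial-like cells. The endothelial-like level of TripleTg was 32.0% of the luminal-like level, above the share for Krt8.

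HB-EGF, a heparin-binding ligand of the EGF receptor, was found in every class. Hbegf was at 1061 CPM (1018 to 1105) in endothelial-like, 933 CPM in basal-like and 543 CPM in luminal-like cells of DoubleTg. In TripleTg the endothelial-like class was at 677 CPM (646 to 710), the luminal-like class at 486 CPM and the basal-like class at 368 CPM. Macrophage-like cells had 67.5 and 84.1 CPM, and the T/NK-like cells of DoubleTg 175 CPM. The few Schwann-like cells (39 in DoubleTg, 25 in TripleTg) had 1981 and 1380 CPM.

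Neuregulin 1, the ligand of ERBB3, was highest, among classes of 100 cells or more, in basal-like cells of DoubleTg and fibroblast-like cells of TripleTg. Nrg1 was at 194 CPM (189 to 200) in DoubleTg basal-like and 118 CPM (110 to 126) in fibroblast-like cells, against 5.92 CPM in luminal-like cells. In TripleTg the order of the first pair turned, with 82.0 CPM (74.6 to 89.9) in fibroblast-like and 59.9 CPM (56.7 to 63.4) in basal-like cells, and luminal-like cells at 9.55 CPM. The 47 dendritic-like cells of TripleTg had 94.8 CPM (70.8 to 124). A UMI of Nrg1 was found at 5000 UMIs in 47.6% of DoubleTg and 19.6% of TripleTg basal-like cells. In endothelial-like cells the share was 1.25% in either library, at median depths of 6135 and 6980 UMIs before thinning against 12661 and 20034 in basal-like cells. Because luminal-like cells were so many and so deep, they held 14.8% of the Nrg1 UMIs of DoubleTg and 38.8% of those of TripleTg, beside 65.5% and 34.9% in basal-like cells.

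The receptors split between compartments. Egfr was highest in basal-like cells, with 144 CPM (139 to 149) in DoubleTg and 105 CPM (101 to 110) in TripleTg, followed by fibroblast-like cells with 69.2 and 57.6 CPM and luminal-like cells with 41.8 and 46.0 CPM. Among the named classes this order was the same in both libraries, and neighbouring intervals did not overlap. The intermediate epithelial clusters had 65.1 CPM in DoubleTg and 90.9 CPM in TripleTg, the latter above fibroblast-like cells, and Scrublet marked 17.6% of these DoubleTg cells as doublets. Macrophage-like cells had 5.58 and 6.83 CPM. By number, luminal-like cells carried 60.2% and 59.8% of the Egfr UMIs.

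Erbb3, the receptor of neuregulin, was mainly luminal, with 31.3 CPM (30.5 to 32.1) in DoubleTg and 69.6 CPM (68.3 to 71.0) in TripleTg luminal-like cells. Basal-like cells had 6.06 and 34.5 CPM, and the intermediate epithelial clusters 40.4 and 42.8 CPM. The Schwann-like cells of DoubleTg held 57.4 CPM (29.7 to 100), from 12 UMIs, and those of TripleTg 81.2 CPM (37.1 to 154), from 9 UMIs. Erbb2, the shared partner, was at 14.5 and 11.3 CPM in luminal-like and 8.35 and 9.06 CPM in basal-like cells. Thus Erbb3 transcripts lay mainly in luminal-like cells, while the level of its ligand Nrg1 was higher in basal-like and fibroblast-like than in luminal-like cells of both libraries.

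**Figure D1:**
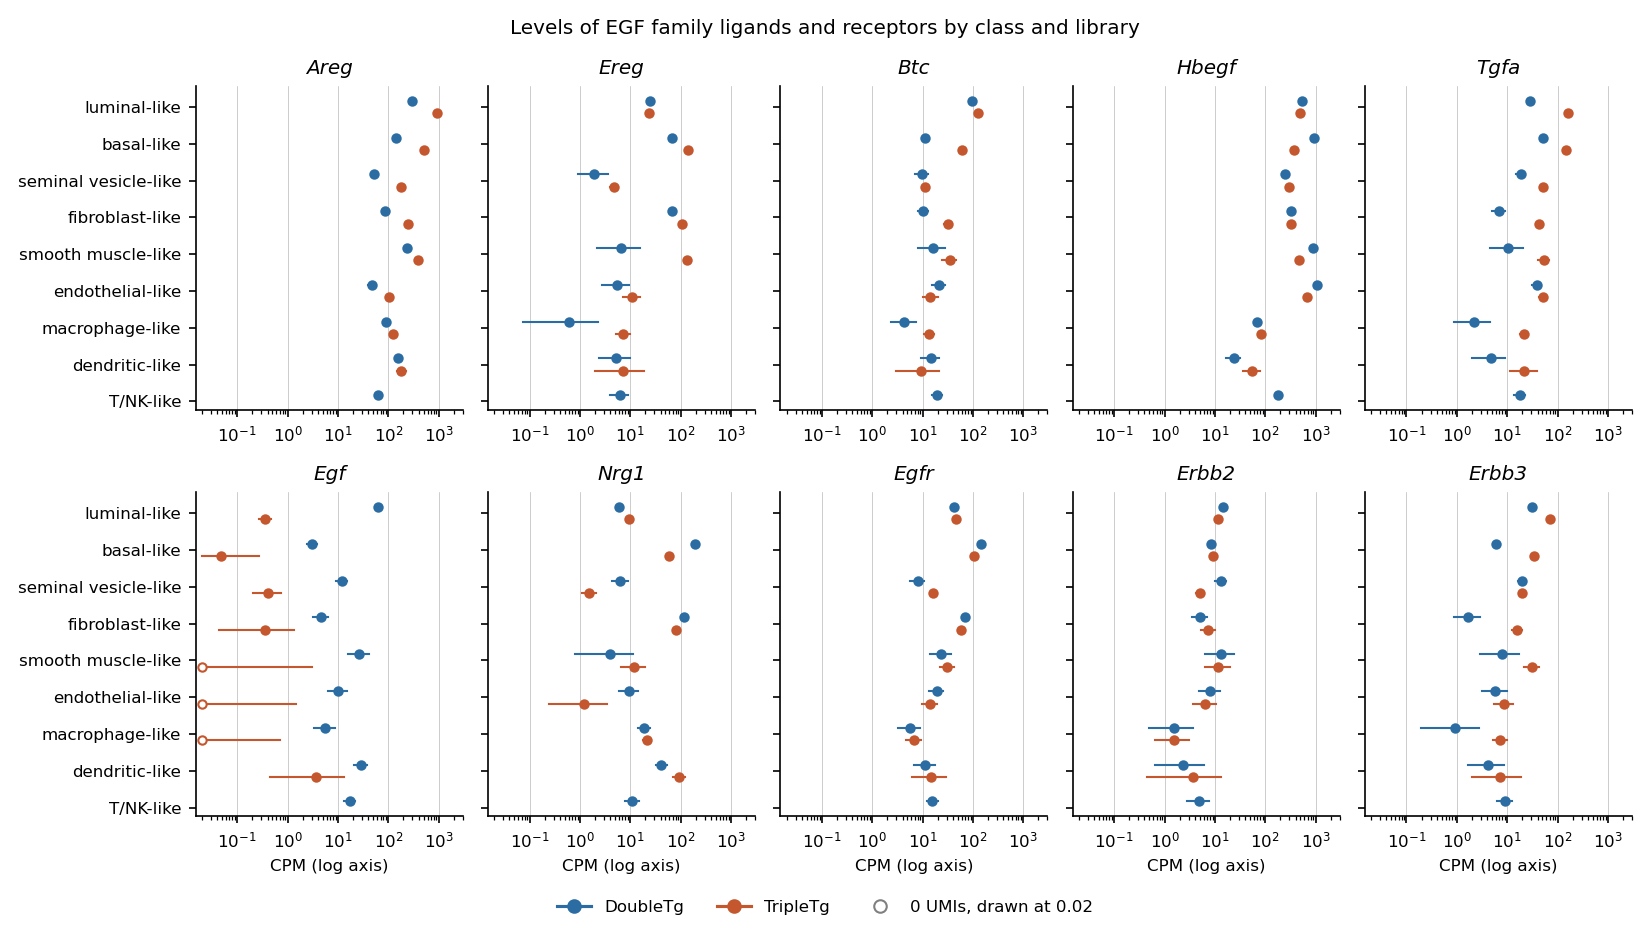
Level of each of the 10 genes (CPM, logarithmic axis) by cell class in DoubleTg and TripleTg, points with 95% counting intervals. Open points mark 0 UMIs and sit at the left end of the axis. Among the classes drawn, Areg, Btc and Erbb3 stand highest in luminal-like cells and Egfr in basal-like cells of both libraries, and TripleTg luminal-like Egf lies at 0.358 CPM.

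The comparison of the libraries sets mice with the stabilised β-catenin allele beside mice without it, within the limit of 1 library each. The HGF and MET transgenes were not at like levels in the libraries. Over the luminal-like clusters hHGFtg spanned 134 to 532 CPM in DoubleTg and 5.86 to 26.8 CPM in TripleTg. For hMETtg the range was 136 to 822 CPM in DoubleTg and 16.7 to 42.4 CPM in TripleTg. The part of this in the differences below was not tested. A gene was counted when it differed at least 2-fold and reached 5 CPM in either group. In luminal-like cells 3 of the 10 genes were higher in TripleTg (Tgfa, Areg and Erbb3) and 1 was lower (Egf, which reached 5 CPM in DoubleTg only and so was counted through the group where it was high). Of all 9048 genes at that level, 11.9% were at least 2-fold higher and 12.7% at least 2-fold lower. The median log2 ratio was 0.24 over the 10 genes and -0.005 over all genes.

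Areg was 3.12-fold higher in TripleTg luminal-like cells (log2 ratio 1.64, 1.63 to 1.66). Tgfa had the largest rise of the 10, 5.65-fold (2.50, 2.46 to 2.54). Erbb3 was 2.23-fold higher (1.15, 1.11 to 1.20). Each of these was also past 2-fold under all 10 other settings tried.

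Egf was 176-fold lower in TripleTg luminal-like cells (log2 ratio -7.46, -7.88 to -7.07), and without the 20 cells of each library richest in Egf the log2 ratio was -10.30. Of the 52 Egf UMIs left in TripleTg luminal-like cells, 20 cells held 86.5%. The secretory markers Pbsn, Sbp and Msmb given above differed in the same direction, and their part in it was not tested.

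The other genes moved less in luminal-like cells. Nrg1 was 1.61-fold higher (log2 ratio 0.69, 0.58 to 0.80), but over all epithelial-like cells, basal-like cells included, it was lower (-1.03). Btc was 1.27-fold higher (0.35, 0.32 to 0.38). Hbegf was at -0.16 and Erbb2 at -0.35. Ereg (-0.07) and Egfr (0.14) lay close to no difference, and their sign turned in 3 and 2 of the 10 other settings.

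Basal-like cells differed in more of the genes. There 5 of the 9 genes that reached 5 CPM were higher in TripleTg and 2 lower, where 14.3% and 12.8% of 8970 genes were. The higher genes were Erbb3 (log2 ratio 2.51, from 6.06 to 34.5 CPM), Btc (2.46), Areg (1.85), Tgfa (1.53) and Ereg (1.05). The TripleTg class was made of cluster 9 (819 cells) and cluster 10 (89 cells). Areg was at 537 CPM in cluster 9 and 144 CPM in cluster 10, Btc at 62.6 and 14.0 CPM, Erbb3 at 35.4 and 12.7 CPM, and Ereg at 145 and 34.3 CPM. In cluster 10 Areg and Btc were thus near the DoubleTg basal-like levels of 145 and 11.1 CPM and Ereg was below its 68.1 CPM, while Tgfa was high in both (145 and 165 CPM). The lower genes were Nrg1 (-1.70, from 194 to 59.9 CPM) and Hbegf (-1.34, from 933 to 368 CPM), and cluster 10 held 150 CPM of Nrg1 and 694 CPM of Hbegf. Egf, the gene left out, was at 79 UMIs in DoubleTg and 1 UMI in TripleTg.

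Areg, Btc and Erbb3, higher in TripleTg basal-like cells, were mainly luminal in DoubleTg. In TripleTg the basal-like level was 56.7% of the luminal-like level for Areg, 49.4% for Btc and 49.6% for Erbb3, and in DoubleTg 49.1%, 11.4% and 19.4%. Krt8 in basal-like cells was at 40.6% of its luminal-like level in DoubleTg and at 24.7% in TripleTg. The part of luminal RNA, and of the lower basal marker sum given above, in these differences was not tested.

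In smooth muscle-like cells Ereg went from 6.58 CPM (5 UMIs in 65 cells) to 135 CPM (161 UMIs in 101 cells), 20.5-fold with an interval of 8.61 to 64.1. In fibroblast-like cells Tgfa went from 6.80 to 42.7 CPM and Erbb3 from 1.66 to 15.6 CPM, where they stood at 26.2% and 22.5% of the TripleTg luminal-like level and Krt8 at 26.8%. Here too TripleTg cluster 3 carried the level, with 82.9 CPM of Tgfa and 32.7 CPM of Erbb3, while clusters 4 and 16 had 16.0 and 17.3 CPM of Tgfa and 2.50 and 7.53 CPM of Erbb3. Nrg1 in fibroblast-like cells was at 118 and 82.0 CPM, and mostly in 1 cluster of each library, DoubleTg cluster 13 (162 CPM) and TripleTg cluster 16 (271 CPM).

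**Figure D2:**
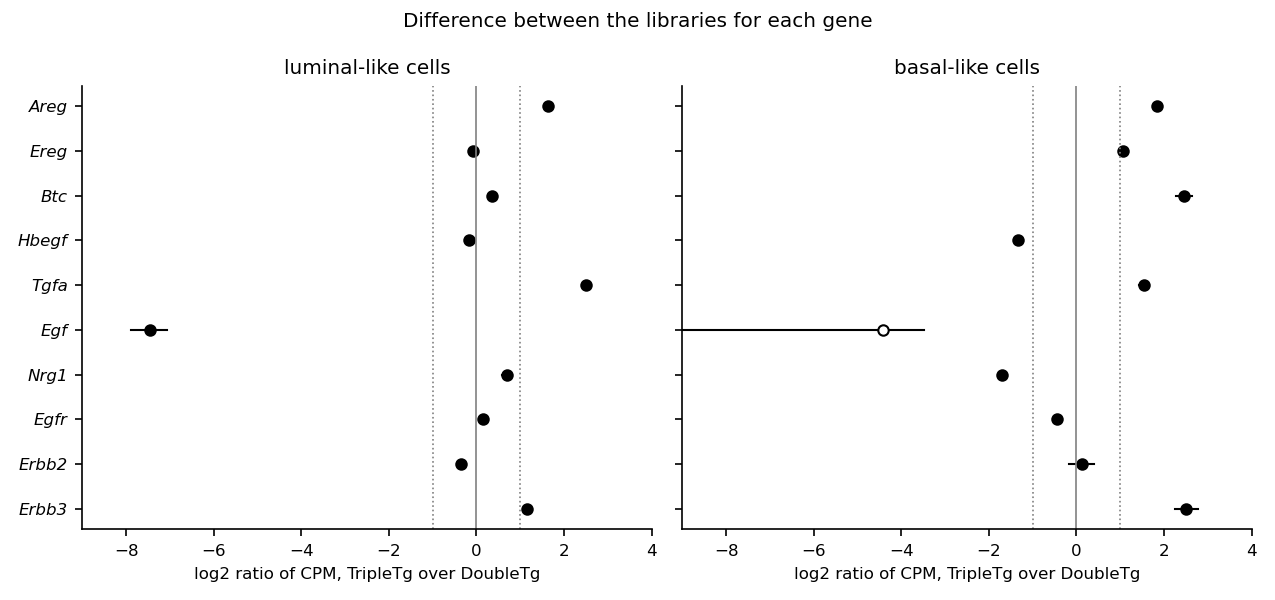
Log2 ratio of CPM, TripleTg over DoubleTg, for the 10 genes in luminal-like and basal-like cells, with 95% counting intervals (open points, under 3 UMIs in a group). Areg and Tgfa lie above 1 in both classes, Nrg1 and Ereg move apart between the classes, and luminal-like Egf is at -7.46.

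The next comparison asks whether luminal-like cells of DoubleTg in which hMETtg was detected differed in ligands from those in which it was not. hMETtg was at 508 CPM in DoubleTg luminal-like cells and 19.9 CPM in basal-like cells. At 5000 UMIs 3228 DoubleTg luminal-like cells had at least 1 UMI of hMETtg and 1387 had none. Among endothelial-like cells, which do not use the probasin promoter, 15.6% had 1. A cell with no UMI may still express the transgene, and a cell with 1 may have received it from outside. Median depth before thinning was 36790 UMIs in positive and 35871 in negative cells.

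Of the 10 genes, 3 were at least 2-fold higher in positive cells and none was lower, all 3 being neighbours on chromosome 5. Over all 8680 genes at 5 CPM, 0.876% were higher and 0.749% lower. The 10 genes were chosen with earlier results of these data known, so this contrast is no independent finding. Areg stood at 388 CPM (378 to 398) with hMETtg and at 133 CPM (124 to 142) without, a 2.92-fold difference (2.73 to 3.13). Ereg was at 33.8 and 8.94 CPM, 3.78-fold with a lower bound of 2.91-fold. Btc was at 125 and 53.2 CPM, 2.35-fold (2.10 to 2.63). The intervals of the positive and negative cells did not overlap for any of the 3 genes.

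The receptor went with these ligands, below 2-fold. Egfr was at 50.8 CPM with and 31.3 CPM without hMETtg (1.62-fold, 1.40 to 1.89), and Tgfa at 34.9 and 22.6 CPM (1.54-fold). Egf was the one gene with an interval below no difference, at 58.4 CPM with and 79.3 CPM without hMETtg. Hbegf (1.20-fold) was slightly higher in positive cells, and for Nrg1, Erbb2 and Erbb3 the intervals included no difference.

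The levels followed the number of hMETtg UMIs. In cells with 0, 1, 2 to 3, and 4 or more of them (1387, 733, 1093 and 1402 cells), Areg was at 133, 203, 333 and 528 CPM. Ereg was at 8.94, 11.2, 28.9 and 49.5 CPM in the same order. Btc was at 53.2, 67.9, 119 and 159 CPM. From the first to the last of these groups Egfr went from 31.3 to 61.5 CPM and Egf from 79.3 to 49.1 CPM. The share of cells with a UMI of Areg was 19.0% in the first and 52.6% in the last group.

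**Figure D3:**
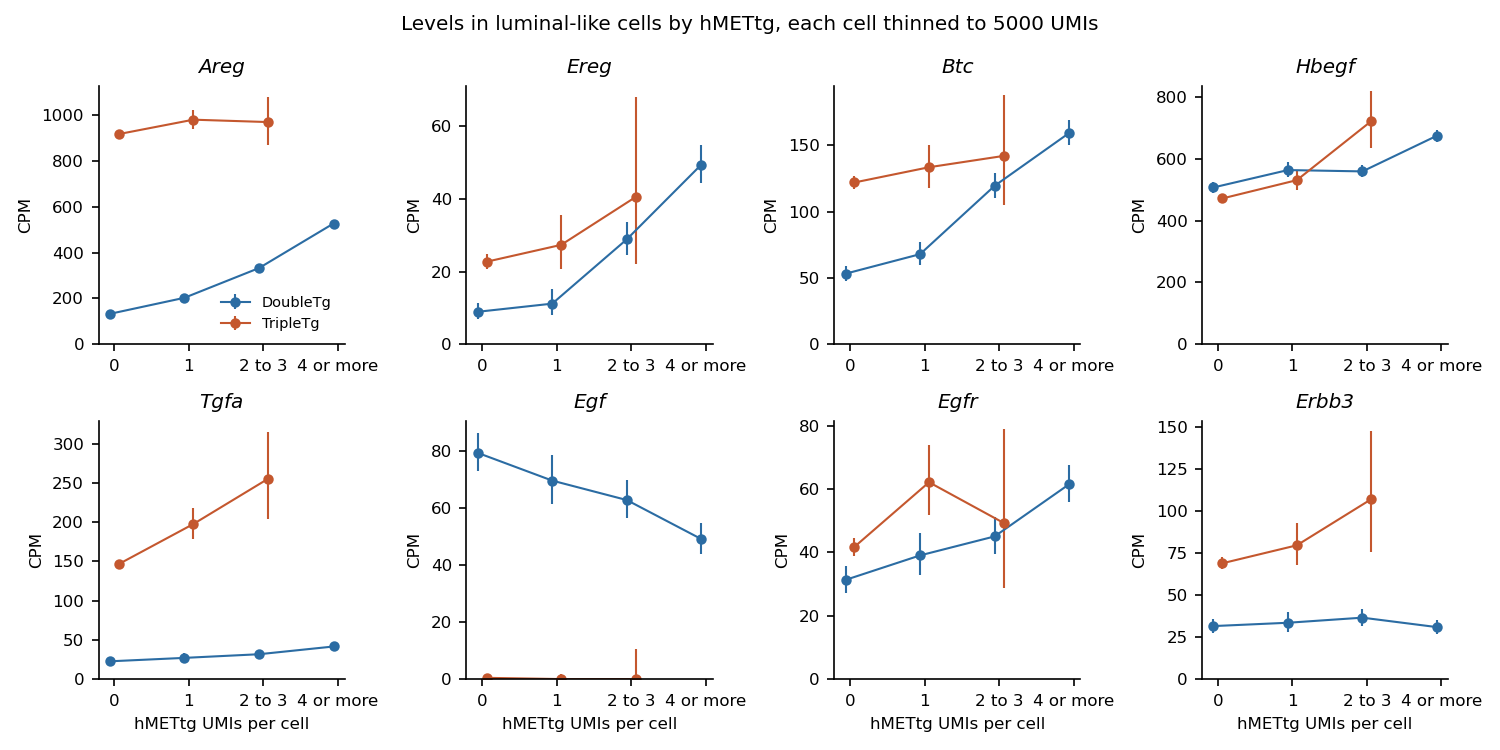
Level (CPM) of 8 genes in luminal-like cells of DoubleTg and TripleTg by number of hMETtg UMIs at 5000 UMIs per cell, points with 95% counting intervals, groups under 50 cells left out. In DoubleTg, Areg, Ereg, Btc and Egfr are higher in each group with more hMETtg UMIs, and Egf is lower.

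Part of this went with the cluster a cell belonged to. The 9 luminal-like clusters of DoubleTg spanned 4.81 to 760 CPM of Areg and 4.03 to 268 CPM of Btc. Cluster 17 (1271 cells, led by Msln, Aldh1a3, Areg and Psca) and cluster 12 (482 cells, led by Prr9, Tcaf2 and Sprr2f, with Btc among its first 10 genes) had 702 and 760 CPM of Areg. Cluster 6 (led by Sbpl and Sbp) and cluster 7 (led by Spink5 and Cxcl17) had 4.81 and 7.60 CPM. Areg and Btc helped to define clusters 17 and 12, so their levels there are no independent finding.

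Clusters 12 and 17 held 44.2% of the hMETtg-positive but 21.8% of the negative cells, and clusters 6 and 7 held 13.6% and 33.5%. When positive cells were compared with negative cells of the same cluster, weighted by positive cells, the ratio was 1.63-fold for Areg, 2.42-fold for Ereg and 1.52-fold for Btc. Only Ereg then remained past 2-fold, where 0.276% of all genes did. The same within-cluster ratio was 1.30-fold for Egfr and 1.12-fold for Tgfa, and Egf was 1.09-fold lower in positive cells, each closer to no difference than the pooled ratio. Areg was higher in positive cells in 8 of the 9 clusters, and its interval lay above no difference in 6. Btc was higher in 8 of the 9 as well, with an interval above no difference in 4. Ereg had 3 UMIs or more on both sides in 5 clusters only, was higher in 4 of them and had an interval above no difference in 2, clusters 12 and 17. The log2 ratio of Areg ranged from -0.39 in cluster 7, from 12 UMIs in all, to 1.93 in cluster 11 (led by secretory genes such as Tgm4 and Pbsn, 288 against 75.6 CPM). In DoubleTg basal-like cells, 112 positive and 1608 negative, Areg was higher in positive cells in both clusters. The log2 ratios there were 0.50 and 0.89, with both intervals above no difference, and the part of luminal RNA in this was not tested.

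**Figure D4:**
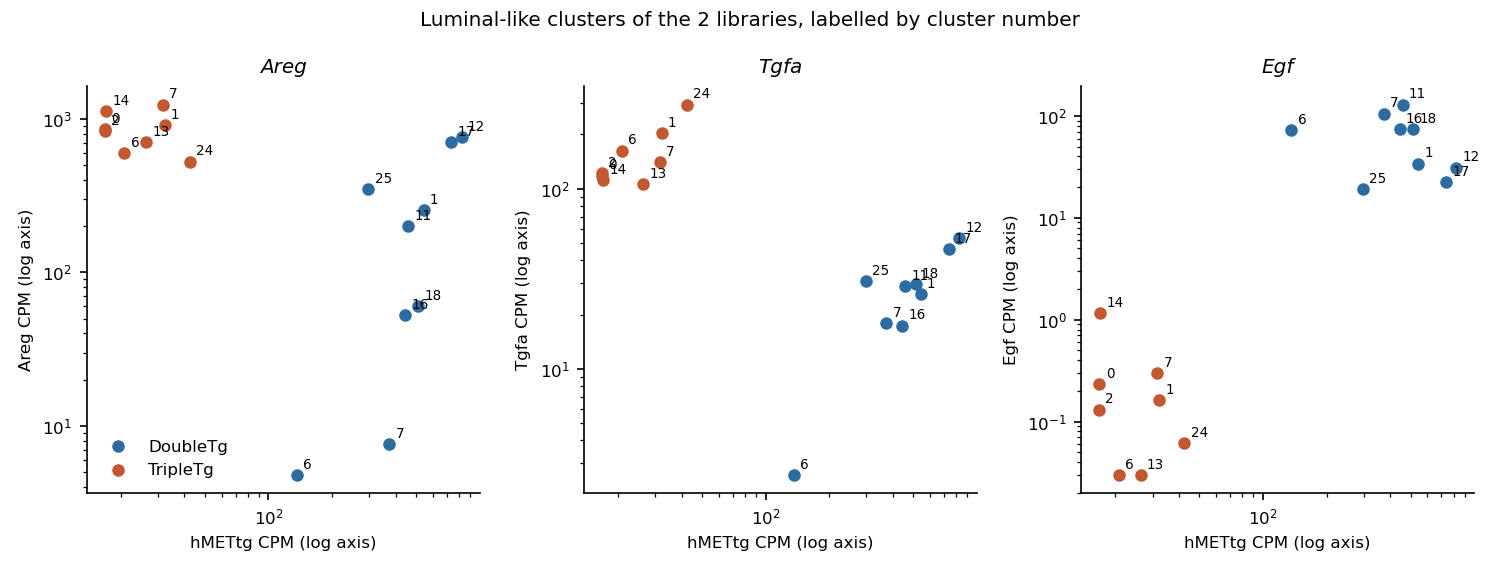
Level of Areg, Tgfa and Egf (CPM) against that of hMETtg (CPM) in each luminal-like cluster, both on logarithmic axes, numbered by cluster, with levels of 0 drawn at the foot of the axis. Areg spans 4.81 to 760 CPM over the 9 DoubleTg clusters and 526 to 1237 CPM over the 8 TripleTg clusters.

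**Figure D5:**
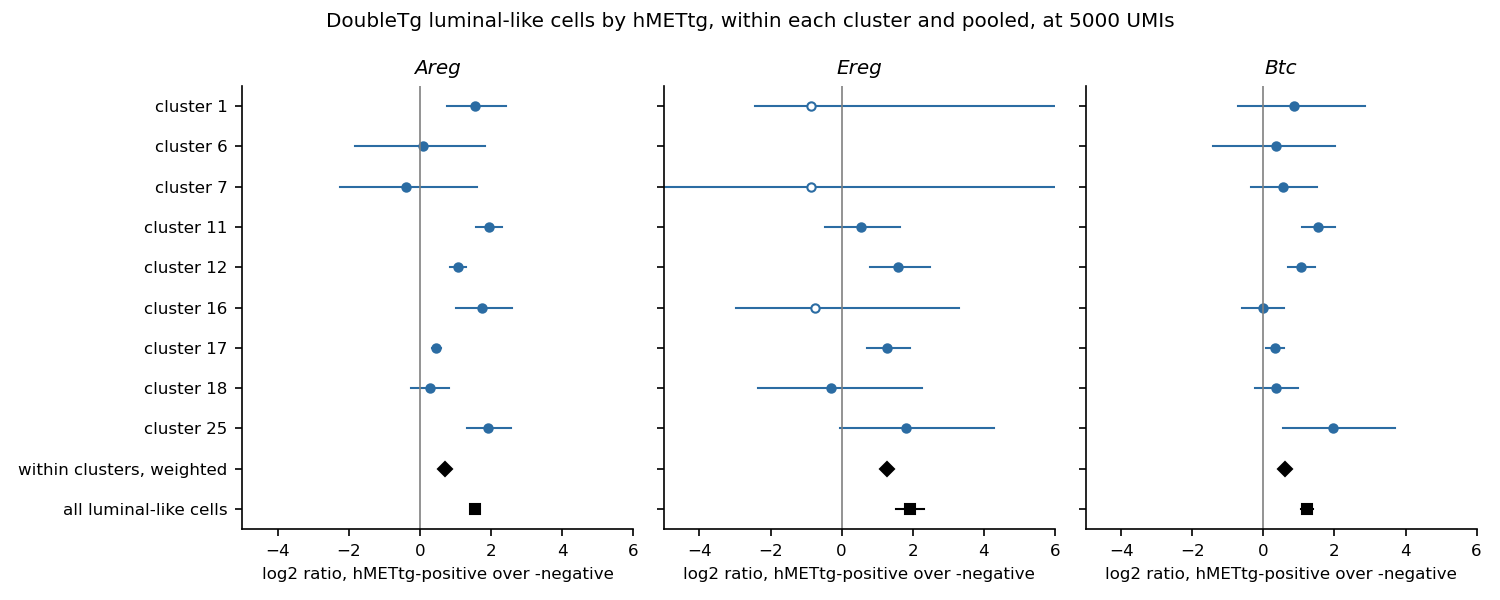
Log2 ratio of CPM, hMETtg-positive over hMETtg-negative DoubleTg luminal-like cells, for Areg, Ereg and Btc in each cluster (open points, under 3 UMIs in a group), weighted within clusters (diamonds) and pooled (squares), with 95% counting intervals. Areg is above 0 in 8 of the 9 clusters.

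TripleTg luminal-like cells carried far less hMETtg, 26.4 CPM, with a UMI in 10.5% of cells at 5000 UMIs, beside 2.5% in the endothelial-like cells of the same library (4 of 160 cells). Their 8 clusters all held Areg, between 526 and 1237 CPM. By hMETtg, Areg there stood at 984 CPM among 483 positive cells against 918 CPM among 4108 negative ones (1.07-fold, 1.03 to 1.12). Tgfa was 1.39-fold (1.26 to 1.53) and Egfr 1.43-fold (1.19 to 1.71) higher in positive cells, pooled over clusters. Of the 7 clusters that could be compared, the interval of Tgfa lay above no difference in 2 and that of Egfr in none. Hbegf was higher in positive cells in all 7, with an interval above no difference in 4. Tgfa was highest in the TripleTg cluster led by Tchh, Fabp4 and Cnfn, at 293 CPM.

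Ligands and receptor were also detected in the same cells. In DoubleTg luminal-like cells at 5000 UMIs, 26.7% of cells with Areg had a UMI of Egfr (24.6 to 29.0) and 14.0% of cells without it (12.8 to 15.3). In TripleTg the same shares were 18.1% and 18.8%. Ereg was found in 19.8% of DoubleTg luminal-like cells with Areg and 1.60% of those without, and Btc in 50.6% and 14.5%. Egf went the other way, in 12.4% of cells with Areg and 29.0% without. These shares were pooled over clusters. Across the 9 DoubleTg clusters Areg rose with Egfr (Spearman's rank correlation 0.92), Ereg (0.98) and Btc (0.93), and ran against Egf (-0.65). The part of the clusters in these shares was not tested. At least 2 of the 6 EGF receptor ligands were found in 57.1% of DoubleTg and 87.5% of TripleTg luminal-like cells, and in 23.1% and 38.8% of endothelial-like cells.

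Other genes of the pathway, from lists set down with the 10 genes, were counted in luminal-like cells beside the 11.9% and 12.7% of all genes that were past 2-fold. Of the other family genes, Epgn, Erbb4, Nrg2, Nrg3 and Nrg4, none reached 5 CPM there and none was counted, although Erbb4, the second neuregulin receptor, was at 4.16 CPM in DoubleTg and 0.200 CPM in TripleTg. None of 5 genes for ligand shedding was past 2-fold, with Adam10 at 64.3 and 89.9 CPM and Adam17, the main sheddase of Areg and Tgfa, at 7.13 and 10.3 CPM. Of 7 genes listed as attenuating the receptors, 5 reached 5 CPM, all but Lrig1 and Lrig3. Among these 5, Cblb, an ubiquitin ligase, was lower in TripleTg (10.9 and 4.75 CPM, counted through DoubleTg alone). The feedback inhibitor Errfi1 was at 329 and 259 CPM. None of 5 adaptors passed 2-fold, and by hMETtg no gene of any of these lists did.

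In basal-like cells, of the 7 genes on the attenuator list 4 were at least 2-fold lower in TripleTg and none higher, beside the 12.8% of all genes. Errfi1 went from 301 to 119 CPM, Lrig1 from 7.92 to 0.719 CPM, Lrig3 from 6.06 to 2.64 CPM and Socs5 from 15.4 to 7.38 CPM. The log2 ratio was -0.24 for Cbl, -0.39 for Socs4 and -0.59 for Cblb, which did not reach 2-fold. Lrig1 and Lrig3 encode membrane proteins that bind the receptors, Lrig1 a known brake on them, and Socs5 promotes EGF receptor breakdown. Lrig1 and Lrig3 reached 5 CPM in DoubleTg only and so were counted through the group where they were high. Of the 5 shedding genes 1, Adam10, was higher (38.2 and 106 CPM). The other family genes at 5 CPM were 2, both lower and Nrg2 again counted through DoubleTg alone. They were Epgn, the fourth ligand gene of the chromosome 5 group (22.6 and 9.49 CPM), and the neuregulin gene Nrg2 (7.88 and 2.11 CPM).

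Tissue digestion can induce immediate early genes, and Hbegf and Areg are known to respond to stress as well. A list of 10 such genes summed to 3391 CPM in DoubleTg and 3996 CPM in TripleTg luminal-like cells, and to 3159 and 2471 CPM in basal-like cells, with none at 0. Within the luminal-like list Ier3 was higher in TripleTg (534 and 1879 CPM) and Atf3 (737 and 229 CPM) and Ier2 (277 and 129 CPM) were lower. In basal-like cells none of the 10 was at least 2-fold higher and 2 were lower. Their median log2 ratio there was -0.68, against -0.07 over all genes. The sum was 3576 CPM in hMETtg-positive and 3644 CPM in hMETtg-negative DoubleTg luminal-like cells. Its part in the differences by hMETtg and between the libraries was not tested.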

How the data were processed

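Gene expression in single cells was measured with 10x 3′ v3 chemistry in 1 library per genotype. The authors aligned reads and counted UMIs per gene and cell with Cell Ranger 6.0.2 (submitters' processing notes, while the DoubleTg matrix header gives 6.1.1) on mm10 with the transgenes added, and the deposited values are raw UMI counts. No per-sample column was left out (0). The TripleTg file held as many cells as the study states it kept, and the DoubleTg file held more, before and after the filter. The 10 genes and all lists were chosen with earlier results of these data known.

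Cells with more than 200 and fewer than 7000 genes and under 15% mitochondrial UMIs were kept, and each library was clustered alone in scanpy 1.11.5 (2000 variable genes, 20 components, Leiden resolution 1, 27 clusters each). Classes were named from marker lists, and clusters with low depth or mixed markers stayed unnamed, 1717 and 1288 shallow cells among them. TripleTg had no T/NK-like class. Scrublet marked 2.58% of DoubleTg and 0% of TripleTg cells as doublets, so it had not worked in TripleTg, and doublets were left in. A summed CPM has an exact Poisson interval, a share an exact Clopper-Pearson interval and a ratio a conditional binomial interval (scipy 1.17.1), all for counting error only. Counts under 3 UMIs were set to 3 in ratios. Thinning to 5000 UMIs left out 136 DoubleTg and 131 TripleTg luminal-like cells. No test was made, since cells are not replicates. Named genes were the 10 genes, the lists, both transgenes and, for each of the 10, the 3 genes most like it over classes. The ratio calculation was tested on simulated counts. Alternatives were other scalings (edgeR 4.0.16, DESeq2 1.42.0), depths, seeds, clusterings, cell filters and doublet removal.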

Additional observations from a re-analysis of the deposited data

Results flagged for a closer look

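Between the libraries 3 of the 10 genes had counting intervals on opposite sides of no difference in luminal-like and basal-like cells. Erbb2 differed in sign too (-0.35 and 0.12), but its basal-like interval included no difference. In each case the difference was not tested, since there was 1 library per genotype. The log2 ratio of Ereg (TripleTg over DoubleTg) was -0.07 in luminal-like and 1.05 in basal-like cells, a difference of -1.12, and the luminal-like sign turned in 3 of 10 other settings. For Nrg1 it was 0.69 and -1.70, a difference of 2.39. In all epithelial-like cells together the Nrg1 ratio was -1.03. For Egfr it was 0.14 and -0.46, a difference of 0.59, and the luminal-like sign turned in 2 of 10 other settings.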

How the results depend on the processing

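Between the libraries 4 of the 10 genes were past 2-fold in luminal-like cells under 9 of the 10 other settings and 5 in all epithelial-like cells, where Nrg1 was added (-1.03). By hMETtg the 3 genes past 2-fold became 1 (Ereg) within clusters, weighted by positive cells. The count was 2 at 2000 UMIs (Areg and Ereg) and 4 without thinning, where Tgfa reached 1.04. The log2 ratio by hMETtg ranged over the settings from 0.70 to 2.47 for Areg, 1.27 to 3.39 for Ereg and 0.60 to 2.01 for Btc, and that between the libraries from 1.49 to 1.72 for Areg, 2.19 to 2.51 for Tgfa and -10.30 to -7.37 for Egf. Other scalings moved the median log2 ratio of all genes by under 0.1. Leaving out the 5% of cells with the highest doublet score was chosen after seeing the data, and leaving out Scrublet's doublets was not run between the libraries, since none was marked in TripleTg. Of the shares of cells, 39 of 40 moved with the depth. Depth limits Egf in TripleTg, with 52 UMIs in luminal-like cells, and every class of under 100 cells. No paired analysis was possible because each genotype had 1 library.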

Other observations

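Over the 14 named classes of 100 cells or more in both libraries, the genes with the pattern most like each of the 10 were found by Pearson's correlation of log2(CPM + 1) among 12680 genes, as a description over points that share libraries and depth. Egf was followed most closely by Abo (0.99), Azgp1 (0.98) and Atp6v1c2 (0.97), and Erbb3 by Tmprss2 (0.97), a protease gene of luminal prostate cells. Btc was most like Entpd3 (0.96), Ereg most like Pmm1 (0.96) and Tgfa most like 2200002D01Rik (0.96). The likeness was 0.95 for Egfr with Cpe and for Hbegf with Crip2, 0.92 for Areg with Nfe2l3, 0.91 for Nrg1 with Gm16685 and 0.90 for Erbb2 with Tfg. Among the 10 genes, Egfr was like Ereg at 0.87.

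Seminal vesicle-like cells of TripleTg carried hMETtg at 130 CPM, above the 26.4 CPM of luminal-like cells, with a UMI in 40.8% of cells at 5000 UMIs. The class joined 2 unlike clusters, one of 420 cells at 178 CPM and one of 143 cells at 7.38 CPM. In the class as a whole Areg was at 175 CPM, Tgfa at 51.7 CPM and Erbb3 at 19.5 CPM, each below the luminal-like level.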
